A study of Mus musculus with 2 samples.

Results

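The 10 genes described here encode ligands and receptors of the VEGF and angiopoietin systems, which steer the growth and upkeep of blood and lymphatic vessels. They were taken by gene symbol and are the ligand genes Vegfa, Vegfc, Figf, Pgf and Angpt2 and the receptor genes Kdr, Flt1, Flt4, Nrp1 and Tek. All 10 were listed in both count tables, among 10198 genes that the tables share. The data are 2 single-cell libraries of mouse lung cells sorted as CD45-, the surface protein of leukocytes, taken 7 days after Labelling-4T1 cells were injected into a vein. The 4T1 line derives from a mouse mammary carcinoma and colonises the lung, and its labelling version was built to release a fluorescent protein that neighbouring cells take up. One library held niche cells and the other distal lung cells, and both come from lungs that received the tumour cells, so there is no library of a lung without them. Mouse strain, age and the number of animals are not given in the sources used here, nor is how niche and distal cells were told apart. With 1 library in each group no difference has a replicate check and no test between groups was possible. All intervals below are exact 95% intervals that cover counting error only.

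VEGF-A acts through 2 receptor tyrosine kinases of blood endothelium, VEGFR2 (Kdr), which carries most of its signal, and VEGFR1 (Flt1), which binds it tightly and can act as a sink. Placental growth factor (Pgf) binds VEGFR1, and VEGF-C (Vegfc) and VEGF-D (Figf, named Vegfd in the annotation) bind VEGFR3 (Flt4), the receptor of lymphatic endothelium. Neuropilin-1 (Nrp1) is a co-receptor for VEGF-A and for class 3 semaphorins. TIE2 (Tek) is the angiopoietin receptor that keeps vessels quiet, and angiopoietin-2 (Angpt2) is the ligand that can block it and that endothelial cells store. In the lung, alveolar type 1 cells are a known source of VEGF-A for the capillaries around them, and Car4-expressing capillary cells, also called aerocytes, are known for high VEGFR2. In the mouse genome build GRCm38 the receptor genes lie at chr5:75932827-75978458 (Kdr), chr5:147561604-147726011 (Flt1), chr11:49609263-49652739 (Flt4), chr8:128358604-128503363 (Nrp1) and chr4:94739289-94874976 (Tek). The ligand genes lie at chr17:46016993-46032369 (Vegfa), chr8:54077606-54187096 (Vegfc), chrX:164373378-164402650 (Figf), chr12:85166635-85177790 (Pgf) and chr8:18690263-18741562 (Angpt2). All are annotated as protein coding.

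The niche library kept 1423 cells with a median of 2975 transcript molecules (unique molecular identifiers, UMIs), and the distal library kept 1987 cells with a median of 1975. Clustering without the 10 genes or the related genes named later gave 497 niche and 1308 distal endothelial-like cells, 781 and 399 mesenchymal-like cells, 94 and 254 epithelial-like cells, and 51 and 26 immune-like cells. The mix within classes also differed between the libraries. Of the endothelial-like cells, lymphatic-like ones made up 6.84% (niche) and 0.841% (distal), Car4 capillary-like ones 18.5% and 9.48%, and a cluster led by Ly6a, Cd74 and Serpina3g 7.85% and 1.76%. Levels are given as CPM, the UMIs of a gene summed over the cells of a group in a library per 1000000 UMIs of the shared genes. CPM are compared within a gene and not between genes. The 8 endothelial marker genes summed to 14049.7 CPM in niche and 16092 CPM in distal endothelial-like cells, the 10 mesenchymal ones to 32423 and 31254 CPM in mesenchymal-like cells, and none was at 0 there. Among mesenchymal-like cells, a cluster led by Mgp, Cxcl10 and Timp1 held 178 niche and 2 distal cells. Among epithelial-like cells, a cluster led by S100a6, Lgals1 and Wfdc2 held 69 niche cells, 54 of them with little of the nuclear RNA Malat1, and 9 distal cells. There were 7 barcodes found in both tables, and 6 of them passed the filters in both libraries and were kept.

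Endothelial-like cells carried nearly all Kdr, Flt1 and Tek transcripts in both libraries, lymphatic-like cells had the highest Flt4 level, and the ligands came from different cells each. Alveolar type 1-like cells had by far the highest Vegfa level, venous-like cells the highest Vegfc, lipofibroblast-like cells the highest Figf, and pericyte-like and lymphatic-like cells high Pgf, the first leading in the niche and the second in the distal library. The Pgf intervals of these groups overlap in both libraries, so their order is not set apart from counting error. Endothelial-like cells had the highest class level for 7 of the 10 genes among niche cells and for 6 among distal cells, and for 9 genes the class was the same in both libraries. The exception was Angpt2, with 64.2 CPM (51.5 to 79.1) in niche endothelial-like and 10.3 CPM (7.11 to 14.5) in niche mesenchymal-like cells. In the distal library it had 29.1 CPM (22.9 to 36.5) and 41.9 CPM (29.8 to 57.2) in these classes, intervals that overlap, so their order there is not set apart from counting error. The order for Vegfc in the niche is not either, at 17.5 CPM (11.2 to 26.1) in endothelial-like and 15.6 CPM (11.6 to 20.6) in mesenchymal-like cells, which held 65.8% of its niche UMIs. In the distal library Vegfc stood at 34.1 CPM (27.4 to 42.1) and 9.66 CPM (4.42 to 18.3). For Vegfa in the niche the class intervals overlap as well. It stood at 97.6 CPM (69.7 to 133) in epithelial-like and 78.1 CPM (64.0 to 94.4) in endothelial-like cells. The endothelial-like share of all Kdr UMIs was 97.7% (niche) and 97.2% (distal), with 94.3% and 97.2% of Tek, and 92.9% and 98.2% of Flt1. The mesenchymal-like share of Figf UMIs was 99.0% (niche) and 96.8% (distal). Nrp1 was the most widely shared receptor, with 46.0% of niche and 11.2% of distal UMIs in mesenchymal-like cells.

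**Figure D1:**
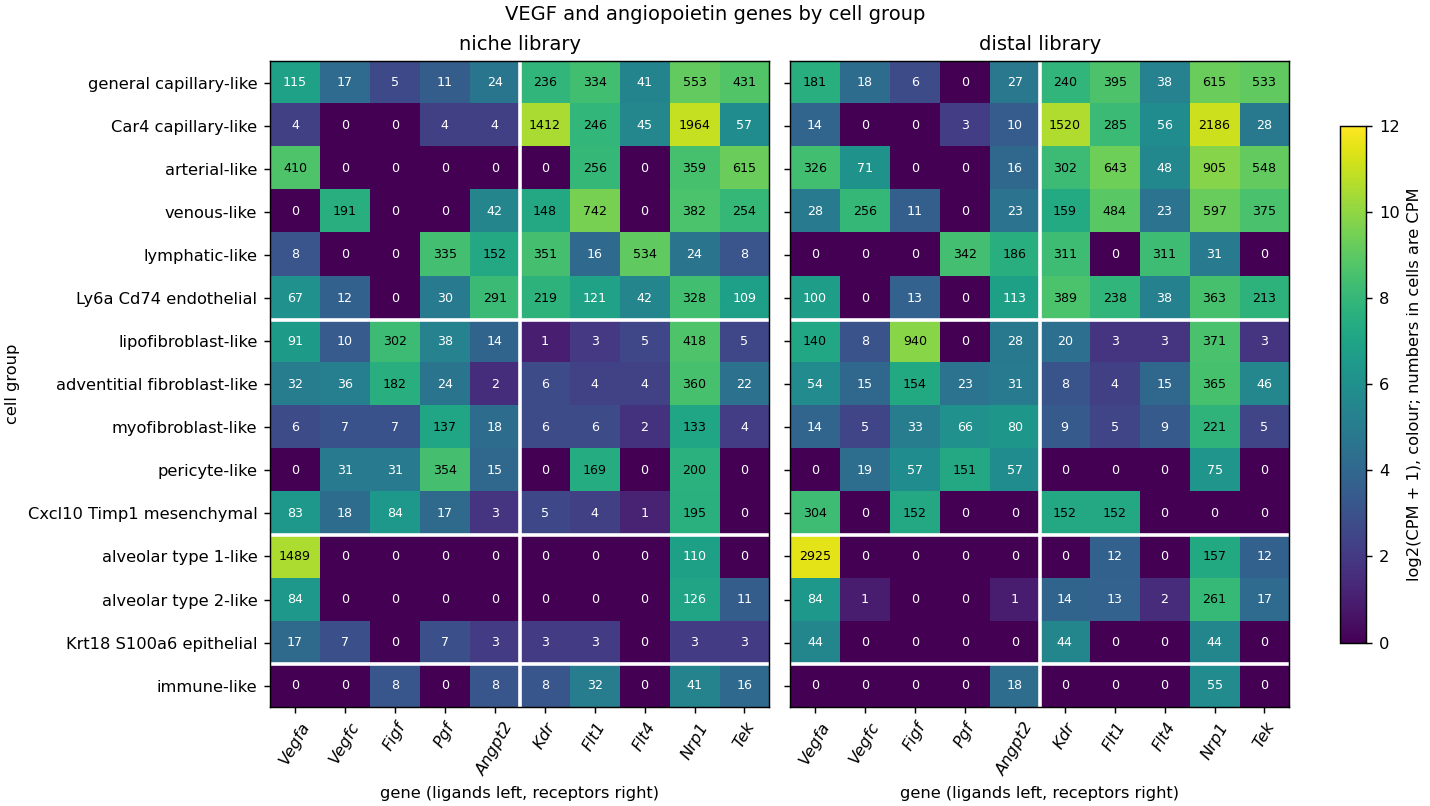
Level of each of the 10 genes (columns, ligands left and receptors right) in each cell group (rows), with the niche library left and the distal library right. Colour is log2(CPM + 1) and the printed numbers are CPM. Vegfa is highest in alveolar type 1-like cells, Kdr and Nrp1 in Car4 capillary-like cells, and Figf in lipofibroblast-like cells in both panels; groups with few cells, such as the 2 distal cells of the Cxcl10 Timp1 cluster, have wide counting error.

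Among the receptors, Kdr and Nrp1 separated the capillary groups in the same way in both libraries. Kdr stood at 1412 CPM (1272 to 1562) in the 92 niche and 1519.8 CPM (1381 to 1669) in the 124 distal Car4 capillary-like cells. In general capillary-like cells, the larger capillary group marked by Gpihbp1 and Plvap, it stood at 236 CPM (203 to 274) in 306 niche and 239.8 CPM (218 to 263) in 1002 distal cells. The log2 ratio of Car4 capillary-like over general capillary-like cells was 2.58 (2.32 to 2.85) within the niche and 2.66 (2.47 to 2.86) within the distal library, so the contrast between the groups was nearly the same size in both. Nrp1 followed with 1964 CPM (1799 to 2141) in niche and 2186 CPM (2019 to 2364) in distal Car4 capillary-like cells, against 553 (501 to 609) and 615 (579.6 to 651) CPM in general capillary-like cells. Its log2 ratio between these groups was 1.83 in each library. Since cells were grouped by other transcripts of the same cells, these contrasts describe the groups and are not tests.

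Tek ran the other way. It stood at 431 CPM (385 to 481) in niche and 533 CPM (500.4 to 567) in distal general capillary-like cells, and at 56.8 CPM (31.8 to 93.6) and 27.8 CPM (11.985 to 54.7) in Car4 capillary-like cells. The log2 ratio of Car4 capillary-like over general capillary-like cells was -2.88 (-3.78 to -2.18) in the niche and -4.18 (-5.48 to -3.28) in the distal library. Arterial-like cells had Tek levels of 615 CPM in 9 niche cells and 548 CPM in 63 distal cells, and lymphatic-like cells had 1 Tek UMI in 34 niche cells and 0 in 11 distal cells. Venous-like cells had 254 and 375 CPM, and the Ly6a Cd74 cluster 109 and 213 CPM. Tek was thus low in the groups with the highest Kdr and the highest Flt4 levels.

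Flt1 was spread over all blood endothelial-like groups. Venous-like cells stood at 742 CPM (517 to 1032) in 17 niche and 484 CPM (386 to 598) in 85 distal cells. General capillary-like cells stood at 334 CPM (294 to 378) in the niche and 395 CPM (368 to 425) in the distal library, and Car4 capillary-like cells at 246 and 285 CPM. Lymphatic-like cells had 2 niche Flt1 UMIs and 0 distal ones. Arterial-like cells had 256 CPM in the niche (83.2 to 598) and 643 CPM in the distal library (511 to 799.5), intervals that overlap. In those 9 niche arterial-like cells Kdr was not detected. With 3 UMIs in place of the 0 it stands at 154 CPM, against 302 CPM (214 to 414) in distal arterial-like cells, 1.962-fold lower. Counting error in the distal sum is not part of that fold.

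Flt4 marked the lymphatic-like group, which was named without it. It stood at 534 CPM (414 to 679) in 34 niche and 311 CPM (149 to 571) in 11 distal lymphatic-like cells, and at 41.4 (28.1 to 58.7) and 38.4 (30.03 to 48.3) CPM in general capillary-like cells. The lymphatic-like intervals of the libraries overlap. By UMIs, endothelial-like cells other than the lymphatic-like ones held 39.4% of all niche and 84.2% of all distal Flt4. Lymphatic-like cells also carried Kdr, with 351 CPM in the niche and 311 CPM in the distal library, but little Nrp1, with 3 UMIs and 1 UMI.

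**Figure D2:**
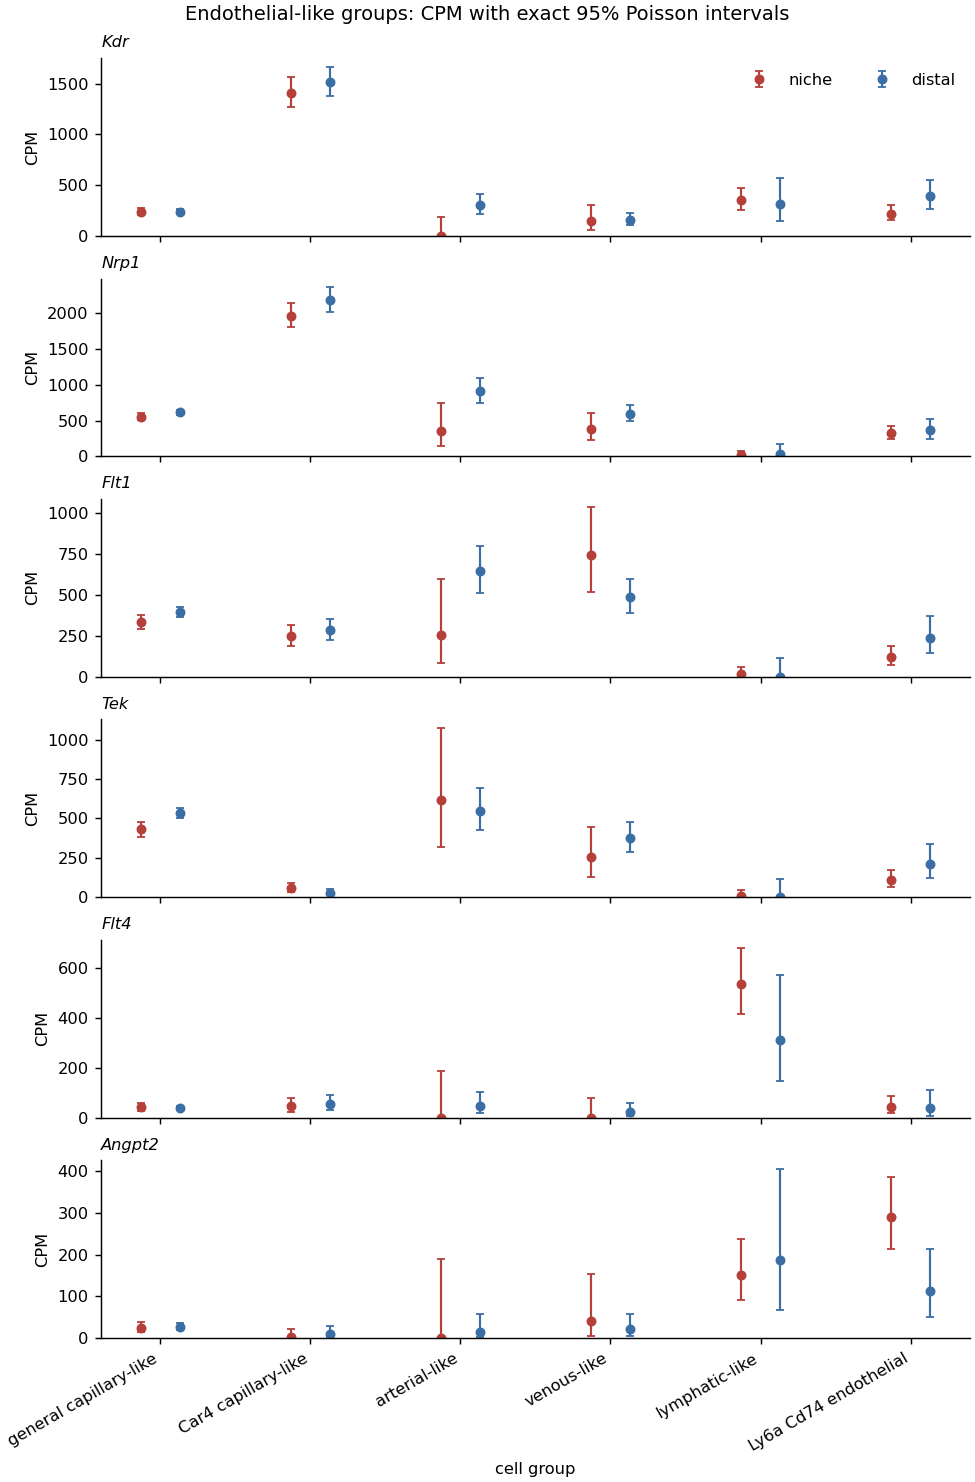
CPM of the 5 receptor genes and of Angpt2 (rows) in the endothelial-like groups, with the niche value left of the distal value in each group and exact 95% Poisson intervals as bars. Niche and distal points lie close together for Kdr and Nrp1 in both capillary groups, Flt4 is highest in lymphatic-like cells, and Angpt2 is highest in the Ly6a Cd74 cluster of the niche at 291 CPM.

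The 250 bases before the start of Kdr, Flt1 and Tek are shown. They were chosen because these 3 receptor genes had at least 92.9% of their UMIs in endothelial-like cells of each library. Of the capillary groups, Car4 capillary-like cells had the higher Kdr and general capillary-like cells the higher Tek level, while both carried Flt1. The sequences are from the RefSeq promoter table of build GRCm38.p6, which held 11 start sites for 9 of the 10 genes. They are written 5′ to 3′ on the strand of the gene, at chr5:75978456-75978705 (minus strand, Kdr), chr5:147726012-147726261 (minus strand, Flt1) and chr4:94739039-94739288 (plus strand, Tek). Capitals mark GGAA or its reverse complement TTCC, the core letters bound by ETS factors, a family used widely in endothelium.
Kdr: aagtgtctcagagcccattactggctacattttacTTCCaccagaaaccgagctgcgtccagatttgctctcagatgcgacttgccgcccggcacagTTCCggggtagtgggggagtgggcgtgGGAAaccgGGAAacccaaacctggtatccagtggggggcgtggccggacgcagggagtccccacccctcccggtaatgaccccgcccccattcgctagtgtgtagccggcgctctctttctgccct
Flt1: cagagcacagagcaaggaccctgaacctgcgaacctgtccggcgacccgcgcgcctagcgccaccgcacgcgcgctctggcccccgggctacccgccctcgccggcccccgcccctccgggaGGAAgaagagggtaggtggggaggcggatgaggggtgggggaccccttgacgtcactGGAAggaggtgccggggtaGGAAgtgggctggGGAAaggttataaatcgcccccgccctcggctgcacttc
Tek: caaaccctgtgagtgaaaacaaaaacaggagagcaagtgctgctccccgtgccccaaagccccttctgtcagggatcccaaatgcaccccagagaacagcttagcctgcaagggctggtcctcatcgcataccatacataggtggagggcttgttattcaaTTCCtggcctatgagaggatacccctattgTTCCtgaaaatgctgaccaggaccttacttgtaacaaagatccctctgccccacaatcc
These letters are found in the same window of 93.4% of all 32851 start sites in the table and of 9 of the 11 start sites of the 10 genes, so their presence is no mark of these genes. On either strand, TGACGTCA, the cAMP response element, was found at Flt1 alone of the 11 start sites, against 1.55% of all windows, and TATAAA at Figf and Flt1, against 12.4%. ACGTG, the core of hypoxia response elements, was found at 1 of the 11 start sites, against 16.6%. TTCNNNGAA, the element bound by STAT factors, was found at none of them, against 7.02%.

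Among the ligands, Vegfa had 54.6% of its niche UMIs in mesenchymal-like and 12.3% in epithelial-like cells. In the distal library 49.3% lay in endothelial-like and 41.4% in epithelial-like cells. By level, Vegfa was highest in alveolar type 1-like cells. Those cells had 1489 CPM (982 to 2167; 27 UMIs in 8 cells) in the niche and 2925 CPM (2568 to 3318; 242 UMIs in 29 cells) in the distal library. The intervals do not overlap, but 9 of the 27 niche UMIs came from 1 cell and 4 of the 8 niche cells had little Malat1, against 1 of the 29 distal cells, and the part of either in the difference was not tested. Alveolar type 2-like cells, the surfactant-making cells, stood at 84.2 CPM (36.4 to 166) in 17 niche and 83.6 CPM (67.3 to 103) in 216 distal cells. The endothelium itself also carried Vegfa, with 115 CPM (91.8 to 142) in niche and 181 CPM (162 to 201) in distal general capillary-like cells and 410 (177 to 808) and 326 (234 to 442) CPM in arterial-like cells. In Car4 capillary-like cells, the group with the highest Kdr level, Vegfa had 1 niche UMI and 4 distal UMIs. The highest levels of this ligand and of its main receptor thus lay in different groups.

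Vegfc was led by venous-like cells in both libraries, at 191 CPM (87.2 to 362; 9 UMIs) in the niche and 256 CPM (187 to 343; 45 UMIs) in the distal library. Adventitial fibroblast-like cells, the fibroblasts of vessel and airway sheaths, stood at 35.6 CPM (21.1 to 56.3) in the niche and 15.4 CPM (4.19 to 39.4) in the distal library. Lymphatic-like cells, which carry its receptor gene Flt4, had no Vegfc UMI in either library.

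Figf was a fibroblast transcript. Lipofibroblast-like cells stood at 302 CPM (269 to 338) in 266 niche cells and 940.04 CPM (847 to 1040.2) in 172 distal cells, and adventitial fibroblast-like cells at 182 CPM (147 to 223) and 154 CPM (109.9 to 209). The lipofibroblast-like group joins 2 clusters. In the cluster led by Inmt and Mfap4 that also has Tcf21 and Npnt among its leading genes, Figf stood at 964 CPM in 73 niche and 1164 CPM in 126 distal cells. In the cluster led by Mgp and Inmt it stood at 146 CPM in 193 niche and 354 CPM in 46 distal cells. Figf was thus high in the first of these clusters in both libraries, and that cluster made up a smaller part of the niche cells. The log2 ratio of niche over distal was -0.27 (-0.54 to -0.0099) within the first cluster and -1.29 (-1.81 to -0.72) within the second. The part of the mix in the ratio of the whole group was not tested.

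Pgf was high in pericyte-like cells, at 354 CPM (224 to 531; 23 UMIs in 22 cells) in the niche and 151 CPM (65.2 to 297; 8 UMIs in 35 cells) in the distal library, and in lymphatic-like cells, at 335 CPM (241 to 453) and 342 CPM (171 to 611). Myofibroblast-like cells, led by Mustn1, Tagln and Acta2, stood at 137 CPM (113 to 164; 114 UMIs) in the niche and 65.7 CPM (35.9 to 110.2; 14 UMIs) in the distal library. Lymphatic-like cells held 42 of the 56 niche and 11 of the 12 distal Pgf UMIs of all endothelial-like cells, and these cells were a larger share of the niche endothelial-like cells, as given above. General capillary-like cells had 8 niche Pgf UMIs, 4 of them in 1 cell, and 0 distal ones. Immune-like cells had none in either library.

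Angpt2 was highest in the Ly6a Cd74 endothelial-like cluster among niche groups. In that cluster it stood at 291 CPM (215 to 386; 48 UMIs in 39 cells, 16 of them in 1 cell) in the niche and 113 CPM (51.6 to 214; 9 UMIs in 23 cells) in the distal library. Lymphatic-like cells stood at 152 CPM (91.2 to 237; 19 UMIs in 34 cells) in the niche and 186 CPM (68.4 to 406) in the distal library, where 5 of its 6 UMIs came from 1 of 11 cells. In the distal library the intervals of this group and of the Ly6a Cd74 cluster overlap. General capillary-like cells stood at 24.0 CPM (niche) and 27.2 CPM (distal). Myofibroblast-like cells carried it too, with 18.0 CPM (10.1 to 29.6) in the niche and 79.8 CPM (46.5 to 128) in the distal library, intervals that do not overlap.

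**Figure D3:**
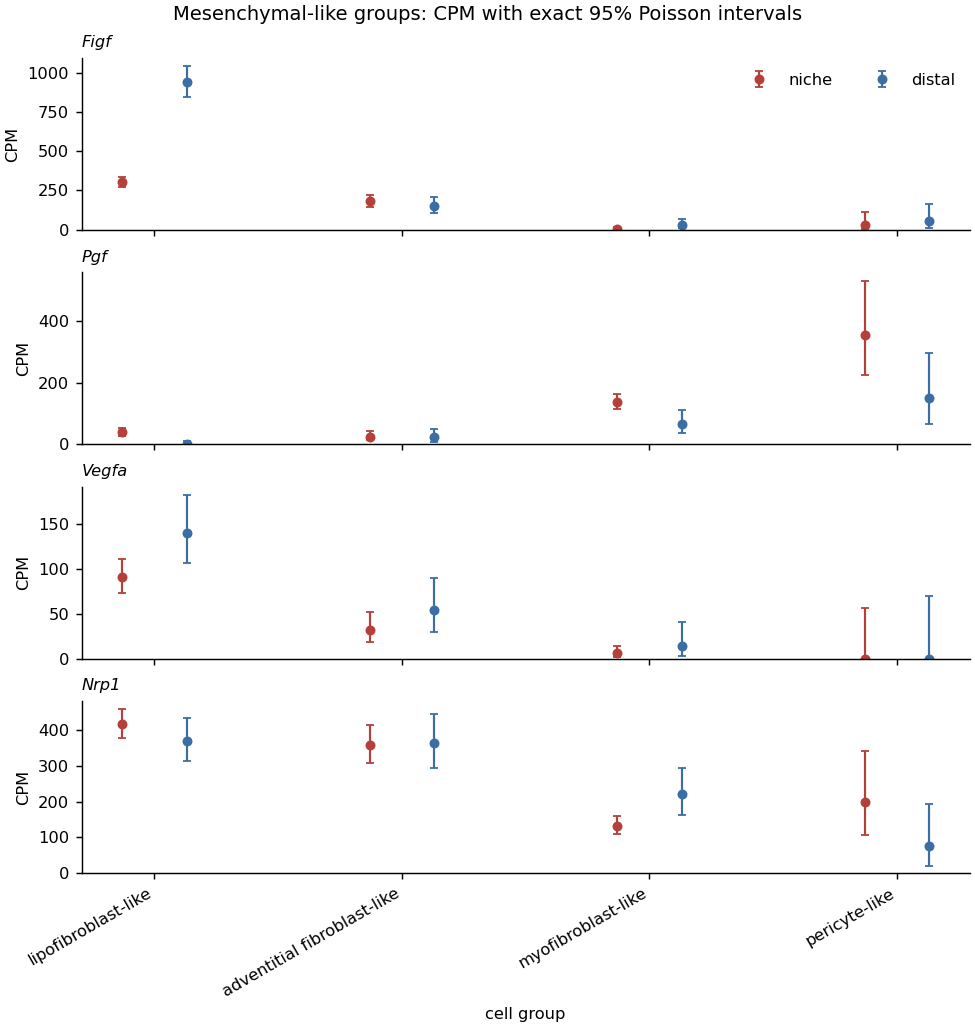
CPM of the ligand genes Figf, Pgf and Vegfa and of Nrp1 (rows) in the named mesenchymal-like groups, with the niche value left of the distal value and exact 95% Poisson intervals as bars. Figf in lipofibroblast-like cells is lower in the niche (302 against 940.04 CPM), and the Pgf points lie higher in the niche in lipofibroblast-like, myofibroblast-like and pericyte-like cells, with overlapping intervals in the last of these.

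Niche and distal cells were then compared. A gene was counted as different where it had at least 10 UMIs over both libraries, its ratio was at least 2-fold and its counting interval left out equality. Over all cells, where the mix of classes enters, 1 of the 10 genes was higher (Pgf, log2 ratio 2.58) and 3 were lower (Vegfa -1.41, Flt1 -1.44, Tek -1.66), beside 5.16% of 10198 genes higher and 6.08% lower. Within endothelial-like cells, 2 of the 10 were higher and 0 lower, beside 3.63% of 9714 genes measured there that differed either way. These were Pgf, with 40.9 CPM (56 UMIs) in niche and 4.65 CPM (12 UMIs) in distal cells and a log2 ratio of 3.09 (2.22 to 4.17), and Angpt2, with a log2 ratio of 1.14 (0.68 to 1.61). With the mix of clusters held equal in both libraries, over clusters with at least 10 cells in each, neither was counted, at 0.68 for Pgf and 0.27 for Angpt2, and without the Ly6a Cd74 cluster Angpt2 had 0.34. Without the 1 niche cell that held 16 of its UMIs, Angpt2 had 0.86 (0.38 to 1.35) and was not counted. The mesenchymal marker list, with none of its 10 genes at 0, summed to 968 CPM in niche and 394 CPM in distal endothelial-like cells, and its part in these ratios was not tested. Without lymphatic-like cells Pgf rested on 14 niche UMIs and 1 distal UMI and had 4.31 (2.12 to 10.24). The other genes were closer to equality or just under 2-fold, and some of them passed 2-fold under other settings. Vegfa was 2-fold lower without low-Malat1 cells (-1.03, from -1.36 to -0.71) and with cells thinned to one depth (-1.02), where Vegfc was lower too (-1.58, from -3.06 to -0.50). Flt4 was 2-fold higher under both settings, at 1.0 and 1.19, among cells with at least 1000 genes (1.26) and without the Ly6a Cd74 cluster (1.08). Flt4 had 85.4 CPM in niche and 43.1 CPM in distal endothelial-like cells, a log2 ratio of 0.99 (0.60 to 1.38) that was 0.025 without the lymphatic-like cells. Kdr had 0.27 (0.12 to 0.41), Nrp1 -0.089 (-0.20 to 0.020), Flt1 -0.51 (-0.68 to -0.34), Tek -0.69 (-0.87 to -0.53), Vegfa -0.97 (-1.30 to -0.67), Vegfc -0.94 (-1.68 to -0.30) and Figf -0.78 on 18 UMIs in all. The median log2 ratio of the 10 genes was -0.30, beside -0.039 over all genes measured in these cells.

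In mesenchymal-like cells, 5 of the 10 genes were 2-fold different, against 10.8% of 9970 genes. Pgf was higher in the niche, at 62.9 CPM in niche and 30.06 CPM in distal cells, a log2 ratio of 1.04 (0.49 to 1.69). Figf was lower, at 148 CPM in niche and 457 CPM in distal cells, a log2 ratio of -1.63 (-1.82 to -1.44), and it was -0.41 with the mix of clusters held equal. Angpt2 was lower, at 10.3 CPM in niche and 41.9 CPM in distal cells, a log2 ratio of -2.02 (-2.73 to -1.31) that stayed between -2.11 and -1.64 under the alternatives tried. Kdr (-1.78) and Tek (-1.35) were also lower, on 13 niche and 13 distal UMIs of Kdr, 8 of the distal ones in 1 cell, and 19 and 14 of Tek. Without the distal cell with the most UMIs of the gene, neither was counted, at -0.49 (-1.99 to 1.43) for Kdr and -1.14 (-2.24 to 0.056) for Tek. Without the niche cell with 11 Pgf UMIs, Pgf had 0.97 (0.41 to 1.61) and was just under 2-fold. Nor were Kdr and Tek counted without called doublets, at -0.87 and -1.20, or Pgf after thinning cells to one depth (0.71). The endothelial marker list, with none of its 8 genes at 0, summed to 358 CPM in niche and 649 CPM in distal mesenchymal-like cells. That list moved in the same direction as Kdr, Tek and Angpt2, and its part in their ratios was not tested. Not counted were Flt1 (0.67), Vegfc (0.63), Nrp1 (-0.20), Vegfa (-0.55) and Flt4 (-1.29, from -2.81 to 0.37 on 17 UMIs). The median of the 10 genes was -0.92, beside -0.16 over all genes.

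In epithelial-like cells only 5 of the 10 genes had enough UMIs, and 2 of the 5 were lower in the niche, beside 22.7% of 8071 genes. Kdr, Flt1 and Tek had at most 2 niche and 20 distal UMIs and were not counted. Nrp1 stood at 36.6 CPM in niche and 249.5 CPM in distal cells, a log2 ratio of -2.72 (-3.62 to -2.02), and Vegfa at 97.6 CPM in niche and 279.7 CPM in distal cells, a log2 ratio of -1.503 (-2.03 to -1.04). The S100a6 Lgals1 Wfdc2 cluster, with 69 of the 94 niche cells, had 1 Nrp1 UMI and 5 Vegfa UMIs. Without it, Vegfa had a log2 ratio of 0.14 (-0.42 to 0.63), the other direction, and Nrp1 had -0.99 (-1.92 to -0.27), just under 2-fold. That comparison was of 8 alveolar type 1-like and 17 alveolar type 2-like niche cells against 29 and 216 distal ones. The mix thus still differed, and Vegfa was lower in niche than in distal alveolar type 1-like cells, as given above. The endothelial marker list summed to 198 CPM, with 1 of its 8 genes at 0, in niche and 560.2 CPM in distal epithelial-like cells, and its part in the Nrp1 ratio was not tested. Alveolar type 2-like cells alone had Nrp1 at 126 CPM (65.3 to 221) in the niche and 261 CPM (231 to 293) in the distal library.

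**Figure D4:**
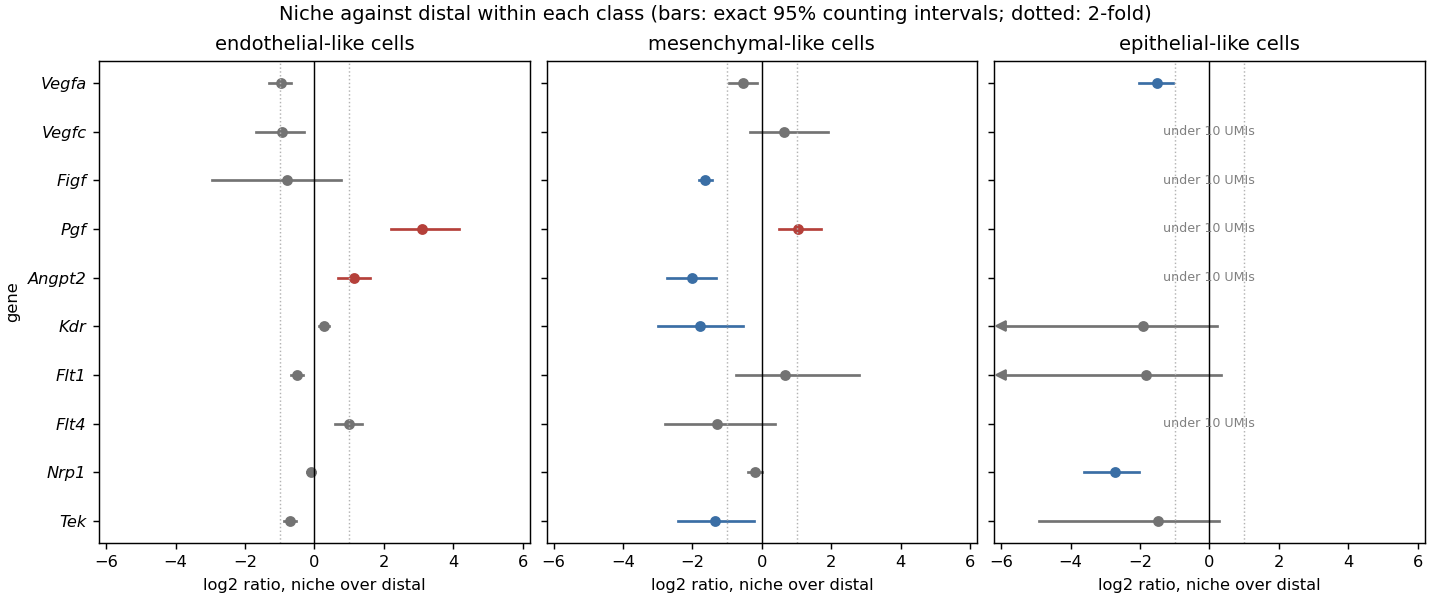
Log2 ratio of niche over distal (x axis) for each gene (rows) in endothelial-like, mesenchymal-like and epithelial-like cells, with exact 95% counting intervals. Red marks genes at least 2-fold higher and blue genes at least 2-fold lower in the niche with an interval that leaves out 0, and grey the rest; Pgf stands farthest right in endothelial-like cells at 3.09, and arrows mark intervals that run past the axis.

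The same comparison was made within cell groups. The 7 groups named here had at least 20 cells in each library and gave 40 comparisons of a gene in a group, of which 8 were 2-fold different. In general capillary-like cells none of 9 measured genes was 2-fold different, where 1.40% of 9359 genes were higher and 1.30% lower. Their log2 ratios ran from -0.65 (-1.01 to -0.31) for Vegfa to 0.12 (-0.55 to 0.74) for Flt4, and 8 of the 9 were below 0, with Tek at -0.30 (-0.49 to -0.12), Flt1 at -0.24 (-0.46 to -0.036) and Kdr at -0.019 (-0.28 to 0.23). Within its 5 clusters of at least 20 cells in each library, Vegfa and Flt4 were each counted as different in a single cluster. The share of all genes counted within these clusters is not given here. Vegfa was lower in the cluster led by Tmem100 and Tspan7, at 64.6 CPM (8 UMIs) in 35 niche and 211 CPM (31 UMIs) in 49 distal cells, a log2 ratio of -1.64 (-3.04 to -0.55). Flt4 was higher in the cluster led by Plvap and Gpihbp1, at 71.7 CPM (9 UMIs) in 53 niche and 26.2 CPM (13 UMIs) in 246 distal cells, a log2 ratio of 1.48 (0.048 to 2.79). In Car4 capillary-like cells none of 5 was 2-fold different (background 1.39% higher and 1.36% lower), with Kdr at -0.11 (-0.31 to 0.096) and Nrp1 at -0.15 (-0.32 to 0.016). In adventitial fibroblast-like cells none of 6 was 2-fold different (background 2.0% higher and 3.74% lower).

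The 8 differences lay in 4 groups, and 3 of the 8 stayed 2-fold when the 1 cell with the most UMIs of the gene was left out of the library with the higher level. In the Ly6a Cd74 cluster, where 2.29% of genes were 2-fold higher and 3.14% lower, Angpt2 was higher with a log2 ratio of 1.31 (0.33 to 2.58), which was 0.81 (-0.24 to 2.11) without the cell that held 16 of its 48 niche UMIs. The other 6 measured genes there were not counted, among them Kdr at -0.83 (-1.56 to -0.089). In lipofibroblast-like cells, where 4.89% were higher and 4.76% lower, Figf was lower at -1.64 (-1.86 to -1.42) and Pgf had 39 UMIs in 22 of 266 niche cells and 0 UMIs in 172 distal cells. With 3 UMIs over the distal group in place of the 0, Pgf was 5.11-fold higher, and the exact interval of its log2 ratio began at 1.98. All 39 UMIs lay in the Mgp and Inmt cluster, where the same replacement gives 1.74-fold over its 46 distal cells. The exact interval of the log2 ratio began at 0.44 there. In that cluster Vegfa was 2-fold higher, at 75.4 CPM (62 UMIs) in 193 niche and 18.1 CPM (2 UMIs) in 46 distal cells. Its log2 ratio was 1.747 (0.14 to 5.13) there and -0.64 (-1.13 to -0.13) over the whole group. Figf was 2-fold lower in the cluster, at -1.29 (-1.81 to -0.72). Of the cluster's cells, 17 niche and 12 distal ones had little Malat1, and their part in these ratios was not tested. The share of all genes counted within the cluster is not given here. Leaving out 1 cell kept both differences of the group, with Figf at -1.59 and Pgf on 35 niche UMIs.

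In myofibroblast-like cells, where 4.52% were higher and 6.71% lower, Pgf was higher at 1.01 (0.25 to 1.97), Angpt2 lower at -2.14 (-3.25 to -1.06) and Figf lower at -2.18 (-4.04 to -0.40) on 6 niche and 7 distal UMIs. Without 1 cell Pgf had 0.88 (0.11 to 1.84) and Figf -1.46 (-3.48 to 0.86), neither counted, and Angpt2 -1.98 (-3.12 to -0.85). The group was not the same mix in both libraries, since a finer clustering named 82 of its 188 niche and 15 of its 107 distal cells smooth muscle-like. In the other 106 niche and 92 distal cells Pgf had 137 CPM (52 UMIs) in the niche and 36.7 CPM (6 UMIs) in the distal library, a log2 ratio of 1.80 (0.68 to 3.41). Angpt2 in those cells had 28.9 CPM (11 UMIs) and 85.7 CPM (14 UMIs), a log2 ratio of -1.55 (-2.85 to -0.32), and Figf had too few UMIs, 5 and 3, for a ratio. In the smooth muscle-like cells Pgf stood at 136 CPM (105 to 175) in the niche and 161 CPM (69.5 to 317) in the distal library. In pericyte-like cells, where 5.89% were higher and 4.47% lower, Pgf was higher at 1.17 (0.017 to 2.60), and at 0.83 (-0.42 to 2.30) without the cell that held 6 of its 23 niche UMIs. Flt1 had 11 UMIs in 4 of 22 niche pericyte-like cells, 7 of them in 1 cell, and 0 in 35 distal cells. With 3 UMIs in place of the 0 it was 2.99-fold higher, and the exact interval of its log2 ratio began at 1.03. The 4 UMIs left without the cell that held 7 no longer set it apart from equality. Of these 3 Pgf differences, that of lipofibroblast-like cells thus stayed 2-fold without 1 cell and those of myofibroblast-like and pericyte-like cells did not. Pgf was not 2-fold different in adventitial fibroblast-like cells, at -0.015 (-1.48 to 1.74).

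Shares of cells with a UMI depend on depth, so they were also taken after thinning every cell to 1200 UMIs, which kept 496 niche and 1007 distal endothelial-like cells. Among endothelial-like cells Kdr was found before thinning in 50.9% (niche) and 40.4% (distal), at median depths of 2341 and 1716 UMIs, and in 33.9% and 30.9% after it. In mesenchymal-like cells, which should lack Kdr, it was found in 1.41% of niche and 1.504% of distal cells before thinning, at medians of 3557 and 2078 UMIs, and in 0.640% and 0.852% after it. Endothelial-like shares were thus far above that background in both libraries. Nrp1 differed from Kdr in the other classes. Distal epithelial-like cells had 298 Nrp1 and 16 Kdr UMIs, against 2032 and 995 in distal endothelial-like cells. Niche mesenchymal-like cells had 882 Nrp1 and 13 Kdr UMIs, against 1015 and 637 in niche endothelial-like cells. The ratio of Nrp1 to Kdr UMIs thus differed between classes of 1 library.

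Related genes were taken from 7 lists of 84 genes, of which 65 had enough UMIs in endothelial-like cells. Of these, 1 was counted as higher and 0 as lower, beside the background of 2.09% and 1.54% in these cells. The one was Nrp2, the neuropilin of lymphatic endothelium and co-receptor for VEGF-C, with 62.04 CPM (85 UMIs) in niche and 22.5 CPM (58 UMIs) in distal cells, a log2 ratio of 1.46 (0.96 to 1.97). Without lymphatic-like cells the lists had none 2-fold different. The 8 measured genes of the Notch arm of sprouting had a median log2 ratio of -0.66, and the 2 measured partners of TIE2 signalling, its sister receptor gene Tie1 and the phosphatase gene Ptprb, had -0.53 and -0.94. The 10 measured genes of the tip cell and VEGF response had a median of 0.024, the 18 of the hypoxia response -0.014, the 8 neuropilin and plexin partners -0.24 and the 17 of receptor signalling and stabilisation -0.13, beside -0.039 over all genes.

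In mesenchymal-like cells 13 of 67 related genes were 2-fold lower in the niche and 0 were higher, where 7.39% of all genes were lower and 3.41% higher. Ptprb had 79.5 CPM in niche and 272.7 CPM in distal cells, a log2 ratio of -1.78 (-2.04 to -1.52), and the vasodilator peptide gene Adm had 197 and 422 CPM, a log2 ratio of -1.10. The hypoxia-inducible factor gene Epas1 (-1.27) and the hypoxia-induced gene Bnip3 (-1.38) were lower as well. Their list was not lower as a whole, with a median of -0.14 over its 19 measured genes, beside -0.16 over all genes. The remaining 9 were Tie1, Plxna2, Sema3g, Notch4, Nrarp, Aplnr, Cxcr4, Sox17 and Sox18, with log2 ratios from -2.73 for Aplnr to -1.53 for Tie1, each with at most 20 niche and 23 distal UMIs. Most of these are genes of endothelial cells. The endothelial marker list moved in the same direction in this class, as given above, and its part in their ratios was not tested. In epithelial-like cells 3 of 53 related genes were higher and 11 lower, where 12.4% of all genes were higher and 10.3% lower. Ptprb (-2.02) and Klf2 (-1.13), a flow-responsive transcription factor gene, were among the lower, and the other 9 were Plxna4, Jag1, Shc1, Foxo1, Epas1, Egln2, Bnip3, P4ha1 and P4ha2. The glycolysis gene Pgk1 (2.11, from 1.08 to 3.22), Dusp5 (3.74, from 1.81 to 7.22) and Adm (3.47, from 1.44 to 6.96) were higher, on 9 niche and 2 distal UMIs for Adm and 11 and 2 for Dusp5. The endothelial marker list moved with the lower genes, at 198 CPM in niche and 560.2 CPM in distal epithelial-like cells. The mesenchymal list moved with the higher ones, at 847 CPM, none of its 10 genes at 0, and 305 CPM, 1 of them at 0. The S100a6 Lgals1 Wfdc2 cluster made up 69 of the 94 niche cells. The part of this cluster and of both marker lists in the related genes was not tested.

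**Figure D5:**
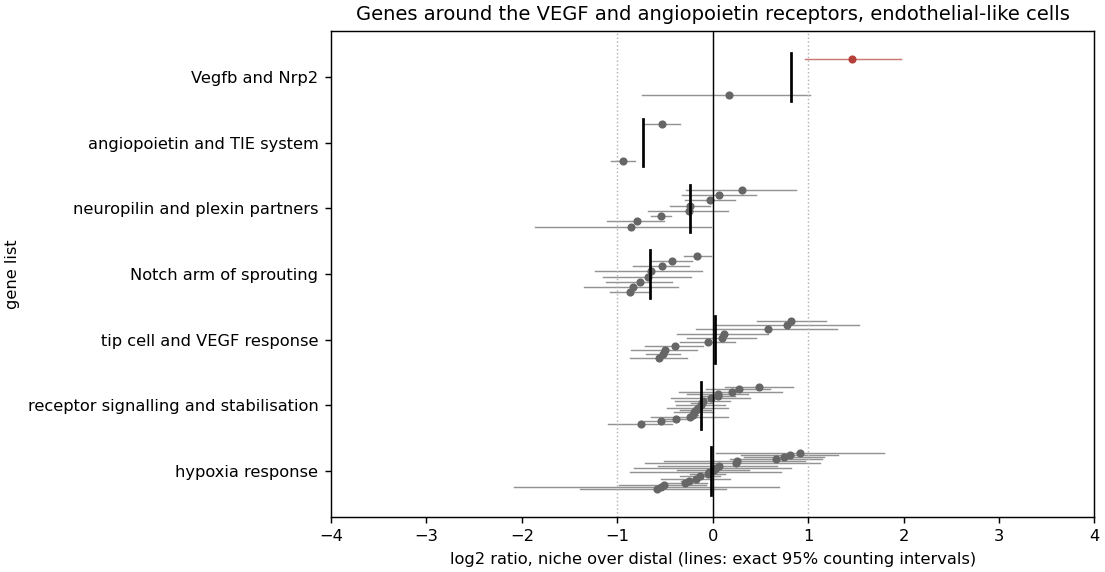
Log2 ratio of niche over distal in endothelial-like cells (x axis) for the related genes of 7 lists (rows), 1 point per gene with its exact 95% counting interval and a black bar at the list median. Nrp2, in red at 1.46, is the one gene at least 2-fold different, and the Notch list lies to the left with a median of -0.66.

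The genes whose levels followed each of the 10 most closely over clusters were taken within each library, over 16 niche and 17 distal clusters with at least 20 cells, as Pearson correlations of log2(CPM + 1). The clusters share libraries and differ in depth, so these are descriptions. Kdr was followed in the niche by Ushbp1 (r = 0.97), Emcn (0.96) and Arhgef15 (0.95), and in the distal library by Myct1 (0.96), Rapgef3 (0.96) and Cldn5 (0.95). Flt1 was followed in the niche by Esam (0.96), Cyyr1 (0.96) and Pcdh1 (0.94), and in the distal library by Slco2a1 (0.96), Gimap8 (0.95) and Cldn5 (0.95). Tek was followed in the niche by Anp32a (0.95), Dpp4 (0.94) and Rbck1 (0.94). In the distal library it was followed by the endothelin gene Edn1 (0.97), Abcb1a (0.95) and Sox17 (0.95). Figf was followed in the niche by Lbh (0.90), Olfml3 (0.90) and G0s2 (0.89), and in the distal library by Pid1 (0.92), Tcf21 (0.91) and Cxcl14 (0.91). Pgf was followed in the niche by Atp2a2 (0.81), Cabin1 (0.79) and Pck2 (0.77). In the distal library it was followed by the mesenchymal marker gene Pdgfrb (0.93), Ndufa4l2 (0.92) and Meg3 (0.87). Those of the other genes are not listed here. For none of the 10 genes did the 3 closest genes of the niche and those of the distal library have a gene in common. How often this holds for other genes was not measured, so it is no result particular to these 10.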

How the data were processed

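Single-cell RNA was measured with the Chromium Single Cell 3′ chemistry, aiming at 50000 reads for each cell, per the labels' protocols. The authors deposited unnormalized UMI counts, with genes and cells in 1 table for each library. The submitters' processing notes name Cell Ranger 2.1.1, the mm10 build and R 3.4.1. There were 5283584 UMIs over 1473 niche barcodes and 4791701 over 1996 distal barcodes. No listed gene had a total below 10 (niche) or 12 (distal), so an unlisted gene is not a count of 0.

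Kept were cells in which 500 or more genes were detected and mitochondrial UMIs did not pass 10%. After scaling each cell to 10000 and taking logs, 2000 variable genes were chosen without the 10 genes and the related genes, and 20 principal components and 15 neighbours were used for Leiden clustering (resolution 1) in scanpy 1.11.5 with igraph 0.11.9, scipy 1.17.1 and Python 3.11.15. The 20 clusters were named "like" a type from 22 marker lists, each name needing at least 3 markers detected in 25% of cells. The Ly6a Cd74, the Mgp Cxcl10 Timp1 and the S100a6 Lgals1 Wfdc2 clusters got a class and no subtype. Scrublet marked 11 niche and 21 distal cells as doublets, which were kept. Cells with a Malat1 share over 10 times below their library's median were called low-Malat1 and also kept.

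UMIs were summed per class or group, each needing 20 cells in both libraries for a ratio. For a log2 ratio (niche over distal) 0.5 UMI was added to each sum, with an exact 95% interval from the binomial distribution conditional on the total. With the mix of clusters held equal, cluster levels were averaged with the same weights in both libraries over clusters with at least 10 cells in each, and the interval was a normal approximation. Levels have exact Poisson intervals. Against a sum of 0 a fold was taken with 3 UMIs over the group in place of the 0, which leaves out counting error in the other sum. UMIs are molecules, but cells are not replicates, so no p-value was computed. Steps were tested on simulated data. Named from the related genes were those 2-fold different, up to 4 per list and class by interval bound, with the lists' medians. Tie1 and Ptprb in endothelial-like cells and Egln2 and Bnip3 in epithelial-like cells were named after their values were seen. The genes and lists were chosen with earlier results of these data known. The alternatives tried are in the closing section. The promoter table gave no entry for Angpt2.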

Additional observations from a re-analysis of the deposited data

Results flagged for a closer look

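For 2 genes the niche over distal ratio ran in opposite directions in endothelial-like and in mesenchymal-like cells, with both counting intervals leaving out equality. Kdr had a log2 ratio of 0.27 (0.12 to 0.41) in endothelial-like and -1.78 (-3.01 to -0.55) in mesenchymal-like cells. Angpt2 had 1.14 (0.68 to 1.61) and -2.02 (-2.73 to -1.31). Without the 1 cell with the most UMIs, Kdr had -0.49 (-1.99 to 1.43) in mesenchymal-like cells, an interval that holds equality, and Angpt2 had 0.86 (0.38 to 1.35) in endothelial-like cells. With 1 library per group the difference between the classes was not tested. The endothelial marker list summed to 358 CPM in niche and 649 CPM in distal mesenchymal-like cells. Its part in the Kdr and Angpt2 ratios of that class was not tested. With the mix of clusters held equal, Kdr had -0.13 in endothelial-like cells, the same direction as in mesenchymal-like cells.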

How the results depend on the processing

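Counts of 2-fold different genes among the 10 moved by over 1.5 times under these settings. The share of all genes counted under each setting is not given here. These counts, and those of the related genes, thus show how the calls moved and are no result particular to these genes. In endothelial-like cells the count of 2 was 4 without low-Malat1 cells, 5 with cells thinned to one depth, 6 at 1.5-fold, 0 with the mix of clusters held equal and 1 without the cell with the most UMIs of each gene, where Angpt2 was lost. The genes gained were Flt4 (higher) and Vegfa (lower) without low-Malat1 cells, Vegfc (lower) as well after thinning, and Tek (lower) as well at 1.5-fold. In mesenchymal-like cells the 5 were 3 without called doublets, 2 after thinning, 3 with the mix held equal and 2 without the top cell. Within cell groups the 8 were 3 without the top cell. In epithelial-like cells the 2 were 1 without low-Malat1 cells, 1 with the mix held equal, 5 when scaled by the median log2 ratio, which shifts all genes there by 0.76, and 0 without the S100a6 Lgals1 Wfdc2 cluster. Among related genes in endothelial-like cells the 1 was 2 with at least 1000 genes per cell, 5 after thinning, 16 at 1.5-fold, 0 without lymphatic-like cells and 3 without the Ly6a Cd74 cluster. Vegfa in epithelial-like cells had -1.503 as reported, 0.024 with the mix held equal and 0.14 without the S100a6 Lgals1 Wfdc2 cluster. Of 9 ratios counted as 2-fold different, 8 kept their direction in all settings in which they could be computed and 1, Angpt2 in mesenchymal-like cells, stayed 2-fold different in all. Holding the mix equal leaves alveolar type 2-like cells alone among epithelial-like ones, since other clusters had under 10 cells in a library. Otherwise the cause of these moves was not tested. Leaving out a cluster, shared barcodes, smooth muscle-like cells or the top cell was chosen after seeing the data. Depth limits groups under 20 cells in a library, such as niche arterial-like and alveolar type 1-like cells. No paired analysis was possible because each group is 1 library.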
